A study of Homo sapiens with 6 samples.

Results

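The mRNAs of the cytosolic ribosomal proteins were compared between L428 cells given an siRNA against BATF3 and L428 cells given a negative control siRNA. The genes were taken by symbol: RPL or RPS followed by digits and an optional A, with the stalk proteins, RPSA and RPS4X added and pseudogenes left out. Of 18244 genes with a probe set of their own, 67 met this rule, 43 of the large subunit and 24 of the small subunit. Genes of the rule with no such probe set, RPS12 and RPLP0 among them, were not analysed here.

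L428 is an established human line from Hodgkin lymphoma, a B cell cancer whose malignant cells have lost most B cell traits. Each nucleofection, an electroporation into the nucleus, used 3 µg of siRNA, and cells were cultured for 48 hours. The groups were 3 arrays with the BATF3 siRNA and 3 with the negative control siRNA, in 1 line and with 1 BATF3 siRNA condition. Whether replicates were separate cultures is not in the labels, and the spread that the p-values rest on may be technical. RNA was read on Affymetrix PrimeView arrays, and all values below are the deposited log2 readings of 1 probe set per gene.

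Ribosomal proteins coat and stabilise the ribosomal RNA of both subunits, guide the mRNA through the small subunit and line the tunnel by which the new protein leaves the large subunit. Their mRNAs are among the most abundant in growing cells. Most begin with a pyrimidine tract, the TOP element, through which mTOR and LARP1 control their translation. MYC, a transcription factor of growth studied downstream of BATF3 in Hodgkin lymphoma, is known to raise the production of ribosomes.

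BATF3, the basic leucine zipper factor targeted by the siRNA, read 10.87, 10.76 and 10.69 on the BATF3 siRNA arrays and 11.89, 12.08 and 11.97 on the control arrays. The groups did not overlap, and BATF3 fell by 1.20 on the log2 scale (SE 0.095, limma adjusted p = 0.00673). Leaving out BATF3 siRNA replicate 3 gave −1.16 (limma adjusted p = 0.0688) and leaving out control siRNA replicate 2 gave −1.14 (limma adjusted p = 0.0648), which ended the call in both cases. With array background as a block the change was −1.10 and was not called. That fit sets BATF3 siRNA replicate 1 alone against the controls. MYC read 10.59, 10.67 and 10.66 against 10.71, 10.79 and 10.81 in the controls (difference −0.13, SE 0.084, limma adjusted p = 0.822). Its groups did not overlap, as in 5.78% of all genes with BATF3 siRNA lower, and it did not pass the test. All 8 listed Hodgkin cell genes had mean readings of 9.02 or more. CCL17 averaged 13.19 and 13.22 after BATF3 and control siRNA, TNFRSF8 (CD30) 10.69 and 10.75, and IRF4 12.33 and 12.30. JUNB, an AP-1 factor and after BATF3 the smallest p of that list, read 9.40, 8.97 and 9.17 against 8.95, 8.90 and 8.77. Its groups did not overlap, as in 6.36% of all genes with BATF3 siRNA higher. The JUNB difference of 0.31 (SE 0.12) did not pass (limma adjusted p = 0.648).

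Markers of other cell types mostly read low. The 3 measured B cell surface genes had mean readings of 3.21 to 7.80. The highest was CD79B, which averaged 7.82 after BATF3 siRNA and 7.78 after control siRNA (difference 0.047, SE 0.14). MS4A1 was at a difference of 0.19 (SE 0.099) and CD22 at 0.059 (SE 0.12). The 4 T and NK cell genes read 3.62 to 5.80. Among them NKG7 read 6.28, 5.85 and 5.87 against 5.72, 5.66 and 5.43 (difference 0.40, SE 0.13, limma adjusted p = 0.589) and CD8A averaged 4.01 against 4.25 (difference −0.25, SE 0.12, limma adjusted p = 0.730), and neither gene's groups overlapped. The 3 myeloid genes read 3.22 to 4.48, with CD14 at 0.20 (SE 0.13) and CSF1R at −0.10 (SE 0.18). The 3 fibroblast genes read 3.03 to 6.39. COL1A2 averaged 4.31 against 4.59 with no overlap (difference −0.29, SE 0.088, limma adjusted p = 0.529), and DCN was at 0.14 (SE 0.13). Over all genes, groups did not overlap in 6.36% with BATF3 siRNA higher and in 5.78% with it lower. None of these markers passed the test, and the T and NK, myeloid and fibroblast genes all had mean readings under 6.68, the lowest reading over the arrays of the control probes with the most G and C. Their part in the values below was not tested.

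The arrays differed in 2 respects, and whether these were technical was not tested. The background reading of GC-rich control probes was 5.92 and 5.98 on BATF3 siRNA replicates 2 and 3 and 6.46 to 6.49 on the other 4 arrays. Control siRNA replicate 2 stood apart in the ribosomal protein genes and in other bright genes, as described below.

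None of the 67 ribosomal protein genes passed the threshold of a limma adjusted p under 0.05 over all genes, where 0.0164% of all genes passed. At an unadjusted p under 0.05 there were also 0 of 67, against 7.15% of all genes. The smallest adjusted p among them was 0.887. The fit draws each gene's variance towards 1 value shared by bright and dim genes, which bears on that comparison. The ribosomal protein genes had a median pooled SD of 0.049 and a median SE of 0.084. With an intensity trend and a robust prior their median SE was 0.051, and again 0 of 67 had an unadjusted p under 0.05. In RNA from whole cultures, fewer cells of a kind and less RNA per cell cannot be told apart. The differences, BATF3 siRNA minus control siRNA, ran from −0.083 for RPL3 to 0.095 for RPL35A on the log2 scale, or from 0.944 to 1.07 times the control level. Their median was 0.0072, beside −0.0027 over all genes, and 41 were positive and 26 negative. The sign of the median followed the scaling: it was −0.0019 after quantile normalization (33 positive), −0.018 after cyclic loess (20 positive) and 0.029 after median centring (57 positive).

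The 95% confidence intervals of all 67 genes lay within 0.5 log2 units on either side of 0 in limma, which was the case for 87.8% of all genes. Within 0.25 units lay the intervals of 58, or 86.6% of the ribosomal protein genes, against 14.8% of all genes. Of 26 other genes that read at or above the lower quartile of the ribosomal protein genes, 25 (96.2%) had intervals within 0.25 units. Among the ribosomal protein genes the lowest bound was −0.28, for RPL27A, and the highest was 0.34, for RPL35A. A change of 1.2-fold in either direction was exceeded by the estimates of 0 ribosomal protein genes and of 6.76% of all genes. It was also exceeded by 0 of the 33 other genes that read 13 or more, and by 1.11% of the 1173 that read from 11 to 13. These bounds concern the readings as deposited.

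**Figure D1:**
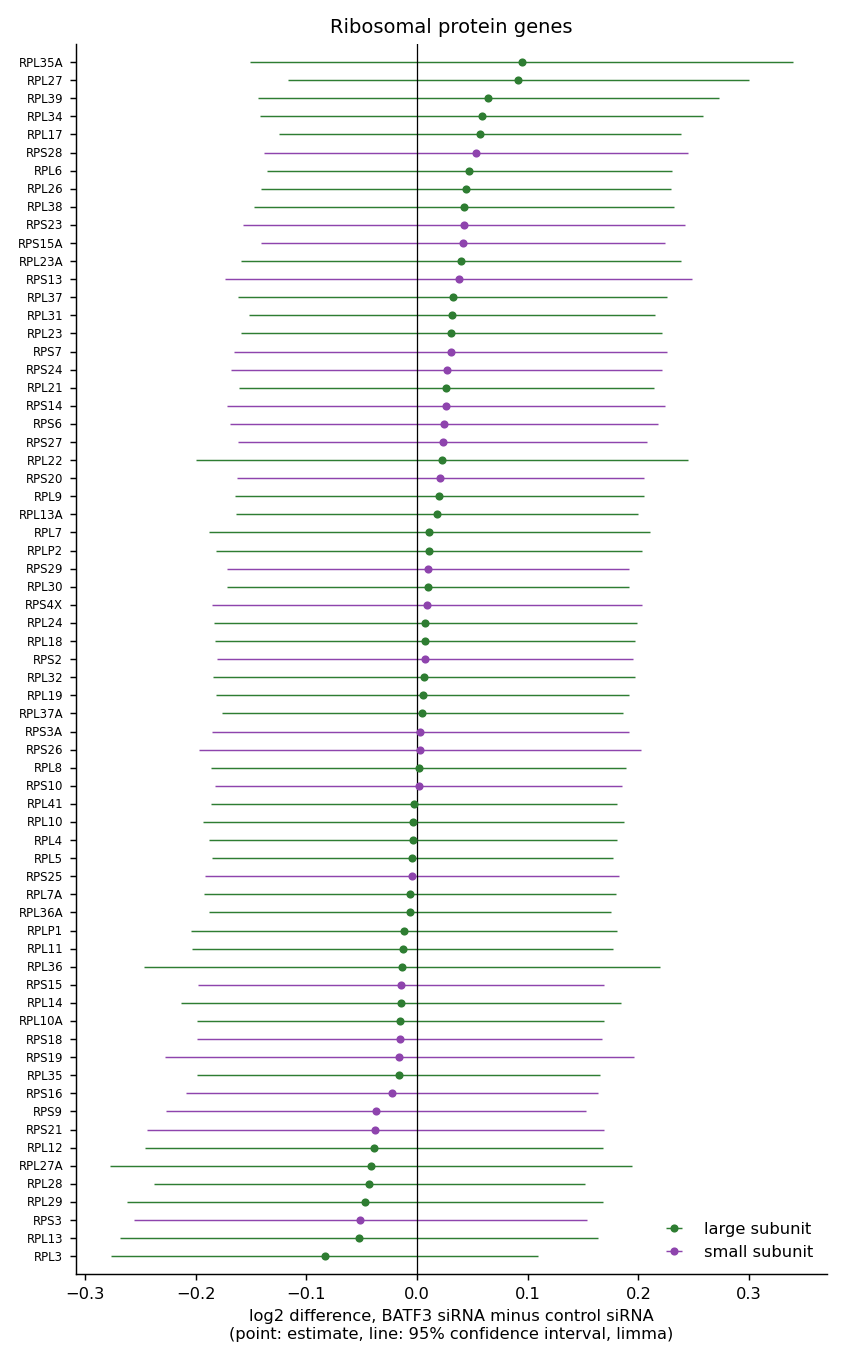
Log2 difference (BATF3 siRNA minus control siRNA, horizontal axis) of the 67 ribosomal protein genes with its 95% confidence interval from limma over 3 arrays per siRNA, sorted by size and coloured by subunit. Every interval crosses 0, and the estimates run from −0.083 for RPL3 to 0.095 for RPL35A with both subunits mixed along the order.

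Both subunits gave similar values. The 43 large subunit genes had a median difference of 0.0061 with 25 positive, and the 24 small subunit genes had 0.0081 with 16 positive. Under cyclic loess these medians were both −0.018, and under quantile normalization they were −0.0020 and 0.0017. The interval lay within 0.25 units for 35 of the large subunit genes and 23 of the small.

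The largest positive differences belonged to RPL35A, RPL27, RPL39, RPL34, RPL17 and RPS28. RPL27, a large subunit protein whose gene is mutated in some families with Diamond-Blackfan anaemia, read 13.40, 13.41 and 13.44 after BATF3 siRNA and 13.42, 13.19 and 13.37 after control siRNA. The difference was 0.092 (SE 0.092, limma adjusted p = 0.887). Control siRNA replicate 2 was the low array, control siRNA replicate 1 lay among the BATF3 siRNA arrays, and without replicate 2 of the controls the difference was 0.024. All 3 probe sets of RPL27 were positive, by 0.054 to 0.092.

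RPL39, a short protein that lines the exit tunnel, read 13.48, 13.56 and 13.52 against 13.55, 13.33 and 13.48 in the controls (difference 0.064, SE 0.092). Without control siRNA replicate 2, its low array, the difference was 0.0024. RPL34 read 12.92, 12.94 and 12.93 against 12.95, 12.75 and 12.90 (difference 0.058, SE 0.089). It was again low on that array alone, and the difference without it was 0.0012.

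RPS28, a small subunit protein at the exit of the mRNA channel, read 13.23, 13.26 and 13.34 against 13.26, 13.16 and 13.25 (difference 0.053, SE 0.085), and the groups overlapped. Leaving out control siRNA replicate 2 gave 0.022, leaving out BATF3 siRNA replicate 3 gave 0.023, and the background block gave 0.0095. RPL35A, another gene of Diamond-Blackfan anaemia, read 9.41, 9.60 and 9.41 against 9.54, 9.22 and 9.37 (difference 0.095, SE 0.11). Its groups overlapped, and the difference without control siRNA replicate 2 was 0.017. A second RPL35A probe set differed by −0.23 and did not overlap, at 8.87 to 9.05 after BATF3 siRNA and 9.17 to 9.20 after control siRNA. A bright probe set annotated to both ZNF391 and RPL35A read 13.39 to 13.43 on the 6 arrays and differed by 0.0012. The RPL35A probe sets therefore gave no common direction.

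RPL17, whose protein forms part of the tunnel's narrowest stretch, read 13.31, 13.34 and 13.32 after BATF3 siRNA and 13.28, 13.25 and 13.27 after control siRNA. The difference was 0.057 (SE 0.081, limma adjusted p = 0.927), and all 3 RPL17 probe sets were positive. The SDs of RPL17 within groups were 0.017 and 0.018, so that SE comes largely from the variance that limma shares over genes. An intensity trend and a robust prior gave an SE of 0.046 (limma adjusted p = 0.855). All BATF3 siRNA arrays lay above all controls. RPL6 and RPS15A, taken up after their values were seen, had the same order of arrays. RPL6 read 13.43 to 13.49 against 13.40 to 13.43, and RPS15A read 13.75 to 13.76 against 13.67 to 13.73. Groups that did not overlap with BATF3 siRNA higher thus occurred in 3 of 67 genes (4.48%), against 6.36% of all genes. With BATF3 siRNA lower there were 0 of 67, against 5.78% of all genes.

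The largest negative differences belonged to RPL3, RPL13, RPS3, RPL29, RPL28 and RPL27A. RPL3, which reaches towards the centre that joins amino acids, read 13.16, 13.01 and 13.07 after BATF3 siRNA and 13.16, 13.14 and 13.19 after control siRNA. The difference was −0.083 (SE 0.086, limma adjusted p = 0.891). BATF3 siRNA replicate 1 lay among the controls, and it shared their GC-rich background reading. With that background as a block, which sets BATF3 siRNA replicate 1 against the controls, the difference was −0.0025.

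RPL13 read 13.14, 12.87 and 12.95 against 13.05, 13.06 and 13.01 in the controls. BATF3 siRNA replicate 1 was the highest of the 6 arrays and replicates 2 and 3 were the lowest. The difference of −0.052 (SE 0.096) became 0.098 with the background block, as replicate 1 lay above the controls. RPS3, at the entry of the mRNA channel, read 13.40, 13.24 and 13.29 against 13.40, 13.27 and 13.41 (difference −0.051, SE 0.091). The block turned it to 0.038, and leaving out control siRNA replicate 2 gave −0.097. That block sets BATF3 siRNA replicate 1 alone against the controls, so it cannot tell background apart from the siRNA. The part of background in these differences was not tested.

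RPL29 read 12.90, 12.76 and 12.76 against 12.79, 12.98 and 12.79 (difference −0.047, SE 0.095), and control siRNA replicate 2 was its highest array. Without that array the difference was 0.018. RPL28 read 13.31, 13.28 and 13.22 against 13.26, 13.40 and 13.28 (difference −0.043, SE 0.087), with the same array highest, and without it the difference was −0.00050. RPL27A was read by 1 probe set at 5.89, 6.06 and 5.80 against 6.03, 5.82 and 6.02 (difference −0.042, SE 0.10). On every array this lay under the reading of the control probes with the most G and C (6.68 to 7.32), so the RPL27A value says little about its mRNA.

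**Figure D2:**
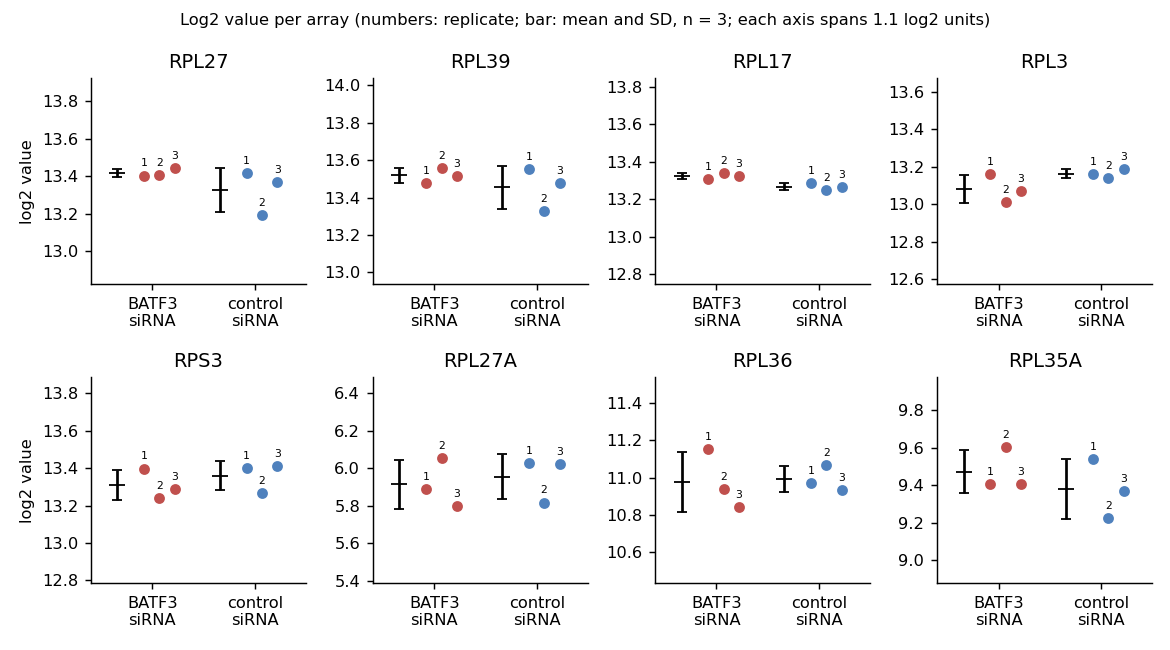
Log2 reading per array of 8 ribosomal protein genes, with the replicate number over each point and the mean and SD of 3 arrays per siRNA beside them; every vertical axis spans the same width. RPL27 and RPL39 are low on control siRNA replicate 2, RPL3 overlaps through BATF3 siRNA replicate 1, and of these 8 genes RPL17 alone has groups that do not overlap.

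Control siRNA replicate 2 held an extreme of most ribosomal protein genes. It was the lowest of the 6 arrays for 32 of them and the highest for 22, so 54 of 67 had an end of their range there. Over all genes this array was lowest for 18.8% and highest for 27.3%. The median deviation of the ribosomal protein genes from their own means was −0.027 on it, and between −0.0083 and 0.0093 on the other 5 arrays. The 26 other genes that read at or above the lower quartile of the ribosomal protein genes had a median deviation of −0.038 on this array and 0.00073 to 0.015 on the others, so a drop there was shared by other bright genes. The range over the 6 arrays was at most 0.38 log2 units in every ribosomal protein gene and had a median of 0.13, or 0.079 without this array. Without it the 67 differences had a median of 0.0032, with 39 positive, and 0 were called.

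**Figure D3:**
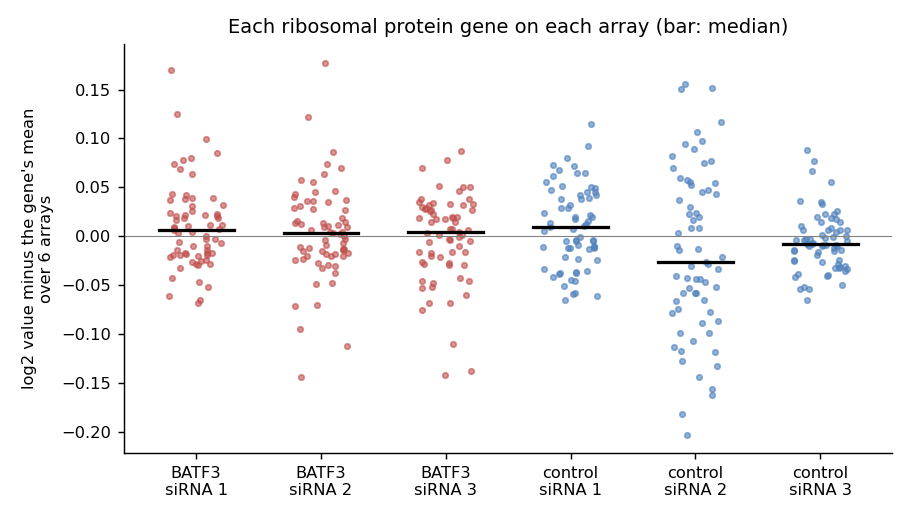
Log2 reading of each of the 67 ribosomal protein genes on each array minus that gene's mean over the 6 arrays (vertical axis), with the median of each array as a bar. The points of control siRNA replicate 2 spread widest and have the lowest median, −0.027, while the medians of the other 5 arrays lie between −0.0083 and 0.0093.

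The probe sets that stood for these genes were among the brightest of the array. Their median reading was 13.27, while the highest reading of any probe set on an array was 14.13 to 14.27. On every array 30 of the 67 read within 1 log2 unit of that array's top. Those reading highest were RPL37A, RPL22, RPL41, RPL32 and RPS15A. RPL37A read 13.81 to 13.84 over the 6 arrays and RPL41, the shortest of the ribosomal proteins, 13.75 to 13.82. The lowest readings were those of RPL27A and RPL35A, followed by RPL36 at 10.84 to 11.15, RPS21 at 12.18 to 12.39 and RPL7 at 12.20 to 12.39. RPL36 and RPL27A, with RPL35A, also varied most within groups. RPL36 read 11.15, 10.94 and 10.84 against 10.97, 11.07 and 10.94 (difference −0.013, SE 0.10). A reading depends on the probes as well as on the mRNA, so it does not rank transcripts.

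Other genes of like brightness also had small differences. Outside the ribosomal protein genes, 33 genes read 13 or more, and their differences ran from −0.051 to 0.043 with a median size of 0.015. The 56 ribosomal protein genes in that range had a median size of 0.017. From 11 to 13 the median size was 0.054 over 1173 other genes, and from 8 to 11 it was 0.078 over 5460. Whether small differences at this brightness reflect the mRNA or the reach of the array was not tested.

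Dimmer probe sets of the same genes read lower on the scale. The 67 genes had 193 single-gene probe sets, of which 110 were positive and 83 negative, with a median difference of 0.0065 and a smallest limma adjusted p over all probe sets of 0.389. At readings of 13 or more lay 86 of them, with differences of −0.083 to 0.092, 52 positive and 34 negative. From 11 to 13 lay 45 with differences of −0.12 to 0.12, 30 positive and 15 negative. From 8 to 11 lay 23 with differences of −0.23 to 0.19, 8 positive and 15 negative. Below 8 lay 39 with differences of −0.49 to 0.34, 20 positive and 19 negative. Groups did not overlap in 10 of the 193 with BATF3 siRNA higher and in 3 with it lower, against 6.38% and 5.86% of all 49393 probe sets.

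Among 55 genes with several probe sets, all had the same sign in 22 and both signs occurred in 33. RPL14, singled out after its values were seen, had 6 probe sets with mean readings of 12.77 to 13.17 with differences of −0.052 to −0.0032. Its seventh read 7.10, 7.18 and 6.92 after BATF3 siRNA and 7.66, 7.41 and 7.60 after control siRNA. These groups did not overlap, and the difference was −0.49 (SE 0.11, limma adjusted p = 0.389 over all probe sets). That probe set lay near the background reading of the control probes with the most G and C. Those probes read 7.18, 6.68 and 6.73 after BATF3 siRNA and 7.32, 7.11 and 7.16 after control siRNA. The part of this background in the difference was not tested. RPS24, a small subunit protein and a gene of Diamond-Blackfan anaemia, differed by 0.027 on its brightest probe set and by 0.34 (SE 0.16) on its dimmest, which read under that background.

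**Figure D4:**
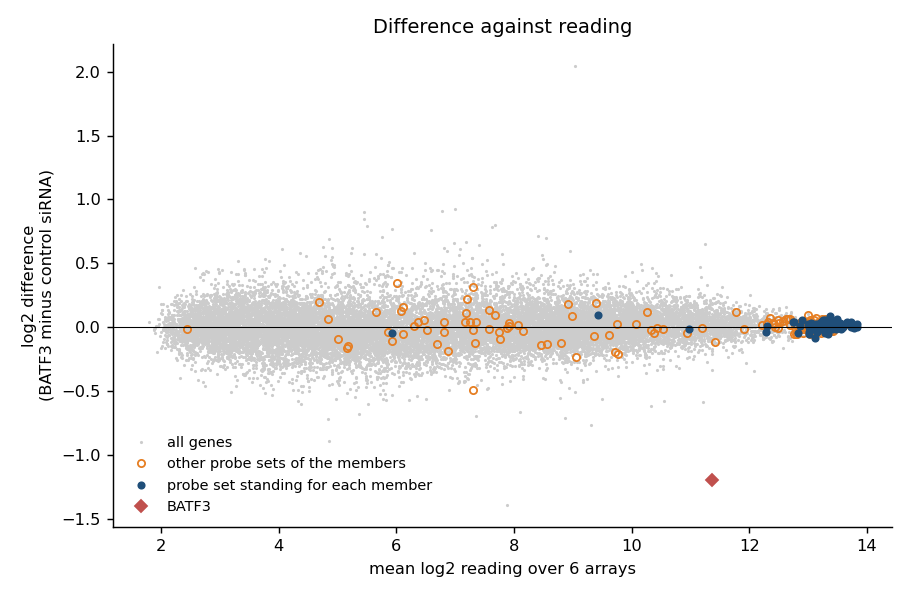
Log2 difference (BATF3 siRNA minus control siRNA, vertical axis) against the mean log2 reading over 6 arrays, for all genes (grey), the probe sets standing for the ribosomal protein genes (filled), their other probe sets (open) and BATF3 (diamond). The filled points gather at the bright end, where all genes spread little, and the open points below a reading of 8 run from −0.49 to 0.34.

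By role, the members gave small differences throughout. RPLP1 and RPLP2, acidic proteins of the stalk that recruits elongation factors, read 13.43 to 13.57 and 13.49 to 13.64 over the 6 arrays. RPL5 and RPL11, which in free form bind MDM2 when ribosome assembly fails, read 13.38 to 13.40 and 13.34 to 13.46. RPS6, the protein phosphorylated by S6 kinases, read 12.98 to 13.04 after BATF3 siRNA and 12.90 to 13.03 after control siRNA. In each of these 5 genes the groups overlapped.

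Of 17 listed genes of Diamond-Blackfan anaemia, an inherited failure of red cell production, 15 were measured and 0 passed in either direction. Their median difference was 0.023 with 12 positive, which turned to −0.0028 under cyclic loess with 7 positive. The 8 genes listed for the rim of the tunnel exit had a median of 0.027, which was 0.00063 under cyclic loess. RPL26 (0.044) and RPL38 (0.042) had the smallest p-values among them. That list includes RPL24 (0.0075), and the place of each protein at the rim was not checked. The 3 tunnel proteins RPL4, RPL17 and RPL39 had a median of 0.057, or 0.017 without control siRNA replicate 2. For 6 proteins of mRNA entry and decoding the median was 0.0043, −0.022 under cyclic loess and −0.010 without control siRNA replicate 2. After RPS3 the smallest p of these belonged to RPS23, which lies near the decoding centre (0.042). In all of these lists 0 members passed over all genes.

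The genes share a feature at their starts that the symbol rule did not use. RefSeq promoters of the GRCh38.p14 build, matched by gene identifier, were at hand for 57 of the 67. A first transcribed C followed by an unbroken run of at least 5 pyrimidines in all, as a TOP element has, was found in 39 of the 57 (68.4%), against 4.04% of all 27305 promoters. The 39 had a median difference of 0.0029 with 21 positive and the other 18 had 0.0056 with 11 positive, so both kinds lay near 0.

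The start windows of the 6 genes with the largest positive and the 6 with the largest negative differences are shown, because these are the ends of the observed range. Each has 15 bases before the annotated start and the first 15 transcribed ones, 5′ to 3′ on the gene's strand. Capitals mark the pyrimidine run that begins with C at the first transcribed base, and a window without capitals starts with another base.
RPL35A (chr3:197950175-197950204, plus strand): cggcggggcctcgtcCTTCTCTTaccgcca
RPL27 (chr17:42998404-42998433, plus strand): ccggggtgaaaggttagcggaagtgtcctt
RPL39 (chrX:119791616-119791645, minus strand): ttcttccgccagcttCCCTCCTCTTCCTTT
RPL34 (chr4:108620561-108620590, plus strand): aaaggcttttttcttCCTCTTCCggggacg
RPL17 (chr18:49492451-49492480, minus strand): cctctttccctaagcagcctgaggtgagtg
RPS28 (chr19:8321481-8321510, plus strand): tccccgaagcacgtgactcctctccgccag
RPL3 (chr22:39319609-39319638, minus strand): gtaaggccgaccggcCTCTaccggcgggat
RPL13 (chr16:89560642-89560671, plus strand): ggccctgctatcatcCCagagtgcattgcg
RPS3 (chr11:75399503-75399532, plus strand): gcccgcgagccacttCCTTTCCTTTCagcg
RPL29 (chr3:51995881-51995910, minus strand): caccgcagcccctttCTCTTCCggttctag
RPL28 (chr19:55385917-55385946, plus strand): tcgcccctcgccttcCTCTTTCCgtctcag
RPL27A (chr11:8682777-8682806, plus strand): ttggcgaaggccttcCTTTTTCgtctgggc

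Tracts of at least 5 bases appear in 3 of the 6 windows with positive differences and in 4 of the 6 with negative ones. The longest, in RPL39, runs on past the window to 19 bases. Where a window lacks the tract, only the annotated start is described, and cells may use a start nearby.

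Promoters of 300 bases (250 before the start and 50 after) were searched on both strands. The motifs were those of AP-1 and MYC, and also the ETS, CRE and TATAAA motifs. The AP-1 motif TGANTCA, the kind of site that BATF proteins bind with JUN, was in the promoters of RPL24 and RPL6, 2 of 57 (3.51%), against 7.76% of all promoters. The E-box CACGTG of MYC was in RPL13A, RPL19 and RPS28, 3 of 57 (5.26%), against 7.43%. The motif CCGGAAG of the ETS family was in 20 of 57 (35.1%), against 10.7%. The CRE motif TGACGTCA was in RPL18, RPL3 and RPLP2, 3 of 57 (5.26%), against 1.98%. Their differences were 0.0075, −0.083 and 0.011. A match is not a bound site, and its absence concerns these windows alone.

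Genes near the ribosomal proteins in function were described from lists. FAU, which encodes the small subunit protein made as a fusion with a ubiquitin-like domain, read 13.59, 13.54 and 13.47 against 13.53, 13.50 and 13.53 (difference 0.0085, SE 0.084). That sign turned under quantile normalization (−0.0083) and cyclic loess (−0.018).

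All 8 listed paralogs were measured and 0 passed. RPS27L, a p53 target related to RPS27, read 11.26, 11.17 and 11.17 against 11.15, 10.89 and 11.09 (difference 0.16, SE 0.097, limma adjusted p = 0.810). RPL22L1, the paralog of RPL22, read 9.76, 9.68 and 9.55 against 9.55, 9.52 and 9.49 (difference 0.14, SE 0.091). In both, which had the smallest p of the list, the BATF3 siRNA arrays lay just above the controls. Such groups without overlap occurred in 2 of the 8 paralogs, against 6.36% of all genes. With BATF3 siRNA lower there were 0, against 5.78% of all genes. RPL22 itself read 13.93, 13.79 and 13.80 against 13.90, 13.67 and 13.89, and its groups overlapped.

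Elongation factors and other TOP mRNAs showed 0 of 17 genes called and a median of 0.018, which was −0.0079 under cyclic loess and −0.0060 without control siRNA replicate 2. EIF4B, an initiation factor that helps unwind mRNA, had the smallest p at −0.085 (SE 0.084), and EIF3H was at 0.068 (SE 0.10). Chaperones of single ribosomal proteins had 0 of 8 called and a median of −0.062 with 1 positive, against 0.00072 with 4 positive without control siRNA replicate 2. HEATR3, an import factor for RPL5, was at −0.13 (SE 0.10), and GRWD1, which serves RPL3, at 0.12 (SE 0.093).

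Among 6 modifying enzymes 0 were called and the median was 0.0037, with 3 positive, and after quantile normalization it was −0.0072. RPS6KB1, the kinase of RPS6, was at 0.19 (SE 0.11) and RIOX2, a ribosomal oxygenase, at −0.12 (SE 0.10). Among 5 regulators of TOP translation 0 were called, 3 were positive and 2 negative, and the differences ran from −0.14 to 0.17. Their median of 0.090 was 0.060 without control siRNA replicate 2 and 0.0085 with the background block. EIF4E, the cap-binding protein, was at 0.17 (SE 0.11) and LARP1 at 0.15 (SE 0.11), both lowest on control siRNA replicate 2. MTOR was at −0.091 (SE 0.12).

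Mitochondrial ribosomal protein genes serve the separate ribosome of that organelle. Their differences ran from −0.22 to 0.16 over 76 genes with 0 called and 48 positive. The median size was 0.077, against 0.021 for the cytosolic genes, and the median reading was 10.43 against 13.27. Their median difference was 0.025, or 0.0021 under quantile normalization and 0.073 without control siRNA replicate 2 with 60 positive. MRPS17 had the smallest p, at 8.88, 8.86 and 8.91 after BATF3 siRNA against 9.12, 9.12 and 9.07 after control siRNA (difference −0.22, SE 0.082, limma adjusted p = 0.640). MRPL30 was at 0.16 (SE 0.084). Between these sets of genes the difference in spread was not tested, and the readings differ as given.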

How the data were processed

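The authors deposited 1 log2 value per probe set and array, from PrimeView arrays of total RNA. Per the submitters' processing notes, affy was used. Background correction, normalization and summarization were not given in the sources used here. That the scale is log2 was read from its range. Array medians lay between 6.24 and 6.33, and the number of arrays limits the precision.

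Symbols came from the platform annotation, checked by Entrez identifier in a RefSeq table (GRCh38.p14). Per gene the single-gene probe set with the highest mean stood in. Ribosomal protein genes share sequence with many pseudogenes: 60 of the 67 were read by a probe set ending in _s_at or _x_at, names Affymetrix gives to probes that may match several transcripts. Differences were fitted for all 18244 genes by limma (version 3.58.1, R 4.3.3) as linear models with moderated variances and no covariate, with two-sided p-values adjusted by Benjamini-Hochberg over all genes and a threshold of 0.05, and checked on simulated data. No exact permutation test was used, since the smallest two-sided p it allows with 3 arrays per group is 0.1.

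The members and gene lists were chosen with earlier results of these data known. Named genes are the 6 largest differences in each direction, the 5 smallest p-values, the 5 highest and 5 lowest readings, the 3 largest SDs, role groups, FAU, and the 2 smallest p-values of each list. Named outside that rule, after their values were seen, were MYC, CCL17, TNFRSF8, IRF4, CD79B, MTOR, RPL6, RPS15A, RPL14 and RPS24. Lists carry no test. Promoter motifs were counted in 300 bases per gene. The alternatives were other normalizations, a dim gene filter, other probe set choices, array weights, a robust prior with an intensity trend, blocks for replicate number and for array background, and leaving out each array. The reading bands and the split by probe set were chosen after seeing the data.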

Additional observations from a re-analysis of the deposited data

How the results depend on the processing

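Over the 17 alternatives 0 ribosomal protein genes were called, and their smallest limma adjusted p was 0.387. Of 3 genes called in all, the count was 6 with a filter on dim genes, 5 with the most variable probe set, 25 with array weights, 12 with an intensity trend and a robust prior, 0 with the background block (1011 at an unadjusted p under 0.05), and 0 to 2 with 1 array left out. The count of 0 arose on leaving out BATF3 siRNA replicate 3 or control siRNA replicate 2, where 852 and 1446 genes had an unadjusted p under 0.05. The median difference of the ribosomal protein genes was 0.029 after median centring and −0.018 after cyclic loess, and 0.0032 to 0.011 with 1 array left out. BATF3 was no longer called with the background block (−1.10), which sets BATF3 siRNA replicate 1 alone against the controls. With 1 array left out the change of BATF3 ran from −1.24 to −1.14. With the replicate block 3 genes were called, and the median of the ribosomal protein genes was 0.0072 with 0 called. Deviations of arrays with the same number correlated across genes at 0.029, 0.15 and −0.025, and 1 of 3 BATF3 siRNA arrays correlated best with the control of its own number, so the numbers were not taken as pairs.

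Of 254 values for single genes, 232 kept direction and call, 3 lost the call (BATF3) and 19 turned sign. Genes other than BATF3 were not called as deposited, and most were picked for the largest differences on these same arrays. The 232 is therefore no measure of how firm those differences are. FAU was −0.0083 after quantile normalization, −0.018 after cyclic loess and −0.021 with array weights. RPL36 was 0.0082 after median centring and 0.16 with the background block, under which RPL13 was 0.098, RPS3 0.038 and RPL29 0.045. RPL35A was −0.023 with averaged probe sets. With the most variable probe set RPL34 was −0.059 and RPL28 0.31. With 1 array left out FAU ran from −0.021 to 0.041, RPL13 from −0.13 to 0.0062, RPL27A from −0.11 to 0.017, RPL29 from −0.093 to 0.018 and RPL36 from −0.10 to 0.054. The cause was not tested for any of these.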
